A study of Homo sapiens with 6 samples.

Results

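The machinery of MHC class I antigen presentation was followed in LOX-IMVI cells through 9 genes taken by name from the 47432 genes in each table: HLA-B, HLA-C, HLA-E, B2M, TAP1, TAP2, PSMB8, PSMB9 and NLRC5. LOX-IMVI is an established human melanoma line, and its cells received a lentiviral pLKO.1 vector with either a control short hairpin RNA (shCtrl) or a hairpin against NFKBIZ (shNFKBIZ), followed by puromycin selection. NFKBIZ encodes IκBζ, a nuclear protein that modulates transcription by NF-κB, and the study asked what its constitutive presence does in melanoma cells. Total RNA was sequenced from 3 libraries per group, which the study describes as independent experiments. The groups differ in 1 hairpin, so that an effect of NFKBIZ loss and an effect of that hairpin sequence cannot be told apart. No interferon or other stimulus is named in the labels.

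MHC class I molecules carry peptides from inside the cell to its surface, where CD8+ T cells read them and natural killer cells sense their presence. Peptides are cut by the proteasome, in which PSMB8 and PSMB9 replace constitutive subunits to form the immunoproteasome, and the TAP1 and TAP2 transporter carries them into the endoplasmic reticulum. There they are loaded onto a heavy chain, such as HLA-B, HLA-C or HLA-E, that is paired with the invariant chain B2M, and NLRC5 is a transactivator of many of these genes.

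The promoters of 6 members are shown because several of them hold the same short motifs and the members moved in different directions. Whether the motifs bear on the direction was not tested. Each is the RefSeq window (GRCh38.p14) from 250 bases before to 50 bases after an annotated start, read along the gene's own strand. Capitals mark letters that match, on either strand, the NF-κB pattern GGGNNNNNCC, the interferon regulatory factor (IRF) core AANNGAAA, the STAT pattern TTCNNNGAA, the CRE core TGACG or the CCAAT box. The windows lie at chr6:31357130-31357429 (minus strand) for HLA-B, chr6:31272043-31272342 (minus) for HLA-C, chr15:44711267-44711566 (plus) for B2M, chr6:32853655-32853954 (minus) for TAP1, chr6:32838690-32838989 (minus) for TAP2 and chr6:32853942-32854241 (plus) for PSMB9.
HLA-B: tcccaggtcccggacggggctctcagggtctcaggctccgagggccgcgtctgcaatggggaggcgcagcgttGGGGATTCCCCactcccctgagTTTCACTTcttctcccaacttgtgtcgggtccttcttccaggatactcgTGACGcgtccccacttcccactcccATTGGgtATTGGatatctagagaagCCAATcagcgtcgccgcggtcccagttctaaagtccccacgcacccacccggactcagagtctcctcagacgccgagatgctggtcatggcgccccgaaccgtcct
HLA-C: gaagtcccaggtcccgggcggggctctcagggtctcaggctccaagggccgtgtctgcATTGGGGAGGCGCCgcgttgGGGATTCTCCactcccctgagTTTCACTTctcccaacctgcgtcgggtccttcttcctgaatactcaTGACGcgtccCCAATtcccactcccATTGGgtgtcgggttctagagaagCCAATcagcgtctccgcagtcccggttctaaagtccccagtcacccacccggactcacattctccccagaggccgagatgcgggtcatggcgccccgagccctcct
B2M: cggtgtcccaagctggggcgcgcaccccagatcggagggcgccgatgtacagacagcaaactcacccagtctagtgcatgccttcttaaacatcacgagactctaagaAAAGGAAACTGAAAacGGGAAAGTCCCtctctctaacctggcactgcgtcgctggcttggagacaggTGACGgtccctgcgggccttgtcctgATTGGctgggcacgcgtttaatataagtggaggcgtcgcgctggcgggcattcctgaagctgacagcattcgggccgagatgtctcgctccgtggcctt
TAP1: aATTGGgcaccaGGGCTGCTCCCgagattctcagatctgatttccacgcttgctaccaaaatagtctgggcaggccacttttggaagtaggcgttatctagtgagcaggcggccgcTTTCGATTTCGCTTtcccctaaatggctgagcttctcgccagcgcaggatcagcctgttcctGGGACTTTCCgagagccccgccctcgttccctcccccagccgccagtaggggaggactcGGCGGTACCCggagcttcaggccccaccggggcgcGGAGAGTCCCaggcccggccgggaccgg
TAP2: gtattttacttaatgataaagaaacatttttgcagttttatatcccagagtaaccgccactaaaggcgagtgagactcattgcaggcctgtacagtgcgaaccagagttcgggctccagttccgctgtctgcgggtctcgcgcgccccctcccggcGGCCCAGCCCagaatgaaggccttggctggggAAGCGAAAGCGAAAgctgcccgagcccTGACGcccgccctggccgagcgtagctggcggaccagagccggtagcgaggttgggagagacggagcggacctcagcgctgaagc
PSMB9: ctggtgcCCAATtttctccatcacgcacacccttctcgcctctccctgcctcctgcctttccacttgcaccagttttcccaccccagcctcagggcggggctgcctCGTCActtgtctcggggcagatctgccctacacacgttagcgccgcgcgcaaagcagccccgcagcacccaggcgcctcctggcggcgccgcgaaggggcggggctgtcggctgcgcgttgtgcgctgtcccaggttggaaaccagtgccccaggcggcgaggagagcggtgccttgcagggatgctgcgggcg

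The HLA-B and HLA-C windows were identical at 269 of 300 aligned positions (89.7%). Both held an NF-κB pattern, an IRF core, a CRE core and CCAAT boxes in the same order, apart from an extra CCAAT box upstream in HLA-C. In HLA-B the NF-κB pattern was read at -177 and again, shifted by 1 base, at -176 from the annotated start, and in HLA-C at -172 and at -188, where it overlapped a CCAAT box read on the other strand. The B2M window held 2 overlapping NF-κB patterns and 2 IRF cores, and the TAP1 window shown held 5 NF-κB patterns, among them a pair that overlap. A second RefSeq window of TAP1, at chr6:32852712-32853011 (minus), held 2 NF-κB patterns, 1 STAT pattern and no IRF core. PSMB8 had 2 windows, which are not shown, and neither held an NF-κB pattern. Its first window held 2 IRF cores and 1 STAT pattern, and its second held 1 CRE core. The PSMB9 window held neither an NF-κB pattern nor an IRF core. It runs away from the TAP1 window on the opposite strand, and the windows share 13 bases. Of all 35116 RefSeq windows of this length, 58.7% held the NF-κB pattern, 22.8% the IRF core, 7.66% the STAT pattern, 24.6% the CRE core and 34.6% the CCAAT box. A match of letters is a description of the reference sequence and was not tested as a binding site. HLA-E and NLRC5 were not matched in the table, and 7 of the 9 members had a window.

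The knockdown was seen in every library. The exon reads of NFKBIZ numbered 1519, 1629 and 1674 in the shCtrl libraries and 474, 477 and 468 in the shNFKBIZ libraries, which put the log2 fold change at -1.78 (SE 0.0581; adjusted P = 7.2e-17 in edgeR's quasi-likelihood test). The libraries held between 22264473 and 24624839 exon reads. All 9 members were among the 13843 genes that passed the filter on low counts. Of 8 melanocyte lineage markers, 7 were under 1 TPM (a level scaled by gene length and library depth) in every library and MLANA, SOX10 and S100B were at 0, whereas 4 of 5 markers of dedifferentiated melanoma were above it, with summed levels of 2500 to 2651 TPM in shCtrl and 2795 to 2906 TPM in shNFKBIZ. Of 10 leukocyte markers, 9 were under 1 TPM in every library, and the exception was CD68. All 4 endothelial markers were under 1 TPM. The leukocyte list summed to 96.8 to 100.2 TPM in shCtrl and 198 to 200 TPM in shNFKBIZ, nearly all of it CD68, and its part in the results below was not tested.

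Changes among the members went both ways. At an adjusted P of at most 0.05 (edgeR, Benjamini-Hochberg over all genes tested), HLA-C, HLA-E, TAP1, PSMB8 and PSMB9 were lower in shNFKBIZ, 5 of 9 members against a background of 32.8% of all genes, and HLA-B and TAP2 were higher, 2 of 9 against a background of 32.5%. B2M and NLRC5 did not pass the test. At a threshold that also asks for a fold change of at least 2 in either direction, 1 of 9 members passed, PSMB9, against 8.96% of all genes. PSMB9 also passed when a difference in mean TPM above 4 was added to that threshold. The median log2 fold change was -0.47 over the members and 0.0043 over all genes tested. Library-scaled counts (CPM) did not overlap between the groups for 7 of 9 members, and the same held for 68.7% of all genes, so that this separation was the rule in these libraries.

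**Figure D1:**
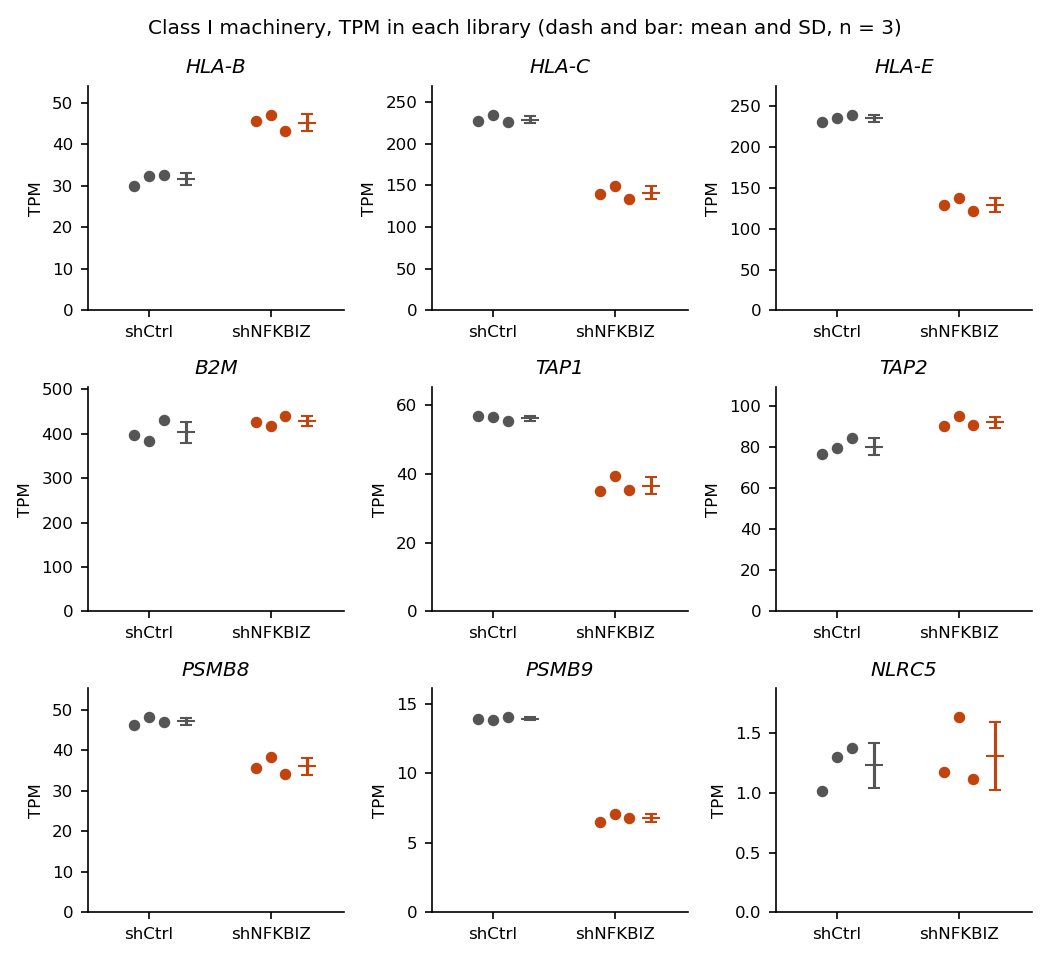
Level of each member in TPM (y axis, from 0, scaled separately in each panel) in the 3 shCtrl and 3 shNFKBIZ libraries (x axis); each point is a library, the dash is the group mean and the bar is its SD (n = 3). HLA-C, HLA-E, TAP1, PSMB8 and PSMB9 lie lower in all shNFKBIZ libraries, HLA-B and TAP2 lie higher, and the groups overlap for B2M and NLRC5.

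Among the heavy chains, HLA-C and HLA-E fell and HLA-B rose. HLA-C, which presents peptides to T cells and engages receptors of natural killer cells, stood at 227, 234 and 226 TPM in shCtrl and at 140.2, 149.5 and 134 TPM in shNFKBIZ. Every shNFKBIZ library was below every shCtrl library, and the means were 229 ± 4.48 and 141 ± 7.74 TPM (SD, n = 3). The fitted change was 1.72-fold lower (log2 fold change -0.78, SE 0.0406, adjusted P = 2.35e-13, edgeR).

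HLA-E, a heavy chain of low variability that shows signal peptides of other class I chains to natural killer cells, stood at 231, 236 and 239 TPM in shCtrl and at 129, 138 and 121 TPM in shNFKBIZ. The groups were again apart. The level was 1.93-fold lower (log2 fold change -0.95, SE 0.0396, adjusted P = 5.46e-15, edgeR), short of the 2-fold limit, and the 95% interval of -1.03 to -0.86 includes that limit.

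HLA-B, the third heavy chain and also a presenter of peptides to CD8+ T cells, moved the other way. Its levels were 29.99, 32.4 and 32.7 TPM in shCtrl and 45.7, 47.0 and 43.1 TPM in shNFKBIZ. All shNFKBIZ libraries were higher than all shCtrl libraries, by a fitted 1.35-fold (log2 fold change 0.43, SE 0.0497, adjusted P = 1.11e-07, edgeR). The ratio of HLA-B to HLA-C, chosen after the values had been seen and therefore given without a test, was 0.138 ± 0.00627 in shCtrl and 0.321 ± 0.0057 in shNFKBIZ (SD, n = 3). The levels of HLA-B, HLA-C and HLA-E together came to 496 ± 7.53 TPM in shCtrl and 316 ± 18.0 TPM in shNFKBIZ, of which HLA-B made up 6.39% ± 0.215 and 14.3% ± 0.243.

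B2M, the invariant light chain without which the heavy chains do not reach the surface in a stable form, was the most abundant member. The shCtrl libraries held 7693, 7694 and 7740 of its exon reads, and the shNFKBIZ libraries 7802, 7485 and 8153. The groups overlapped, and the log2 fold change was 0.0042 with a 95% interval of -0.07 to 0.08 (adjusted P = 0.929, edgeR). With scaling by library size alone, which moves all genes upward in shNFKBIZ, B2M had a log2 fold change of 0.09 and an adjusted P of 0.0323 (edgeR). The ratio of HLA-C to B2M, also chosen after the values had been seen, went from 0.569 ± 0.0427 to 0.331 ± 0.0266 (SD, n = 3).

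The transporter subunits differed in direction. TAP1, which binds ATP and forms the peptide channel with TAP2, stood at 56.7, 56.3 and 55.2 TPM in shCtrl and at 34.96, 39.3 and 35.2 TPM in shNFKBIZ. No shNFKBIZ library reached the lowest shCtrl library. The change was 1.63-fold lower (log2 fold change -0.70, SE 0.048, adjusted P = 2.46e-11, edgeR).

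TAP2, the partner of TAP1, stood at 76.6, 79.7 and 84.8 TPM in shCtrl and at 90.5, 95.2 and 90.8 TPM in shNFKBIZ. The groups did not overlap, but the shift was small, 1.08-fold higher (log2 fold change 0.12, SE 0.0352, adjusted P = 0.0061, edgeR). Without shCtrl replicate 1 the log2 fold change was 0.09 and the adjusted P was 0.0661 (edgeR), which no longer passed. The ratio of TAP1 to TAP2 levels, chosen after the values had been seen, was 0.699 ± 0.0452 in shCtrl and 0.396 ± 0.0151 in shNFKBIZ (SD, n = 3).

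The immunoproteasome subunits fell. PSMB8, the inducible counterpart of PSMB5, stood at 46.2, 48.1 and 46.9 TPM in shCtrl and at 35.6, 38.2 and 34.1 TPM in shNFKBIZ, with no overlap between the groups. The change was 1.39-fold lower (log2 fold change -0.47, SE 0.0525, adjusted P = 7.05e-08, edgeR).

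PSMB9, the inducible counterpart of PSMB6, had the largest change of the 9 members. The shCtrl libraries held 289, 296 and 270 of its exon reads against 127, 136 and 135 in shNFKBIZ, or 13.9, 13.8 and 14.0 TPM against 6.497, 7.08 and 6.80 TPM. The highest shNFKBIZ library was far below the lowest shCtrl library, and the level was 2.17-fold lower (log2 fold change -1.12, SE 0.0907, adjusted P = 4.53e-10, edgeR). PSMB9 is on a list of IκBζ-regulated genes from the study, for which these libraries were used, so its presence there is not independent evidence. The study also drew such genes from mouse D4M-3A cells, which were not examined here. Counted by unique junction reads, its log2 fold change was -0.91 (adjusted P = 4.2e-10, edgeR), below the 2-fold limit.

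Because the inducible subunits take the place of constitutive ones, their levels were set against those of their counterparts. PSMB8 stood at 0.152, 0.154 and 0.148 of PSMB5 in shCtrl and at 0.103, 0.11 and 0.1 of it in shNFKBIZ. PSMB9 stood at 0.045, 0.0444 and 0.0455 of PSMB6 in shCtrl and at 0.0207, 0.0222 and 0.0213 of it in shNFKBIZ. In both cases the inducible subunit made up the smaller amount in either group, and less of it was present in every shNFKBIZ library. The ratio of PSMB10, the third inducible subunit, to PSMB7 went from 0.0642 ± 0.00465 to 0.0531 ± 0.00298 (SD, n = 3). All 3 ratios were lower in each shNFKBIZ library than in each shCtrl library, with a P of 0.1 for each in a two-sided exact permutation test and 0.1 after adjustment over the 3, the smallest value that 3 libraries against 3 can give. By unique exon reads the ratio of PSMB10 to PSMB7 differed by -0.13 on the log2 scale, with P = 0.6 in the same exact test. By total exon reads and on the log2 scale the ratios differed by -0.53, -1.07 and -0.27. The constitutive counterparts PSMB5, PSMB6 and PSMB7 had log2 fold changes of 0.06, -0.04 and -0.07 and did not pass the test (adjusted P of 0.127, 0.304 and 0.0695, edgeR).

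**Figure D2:**
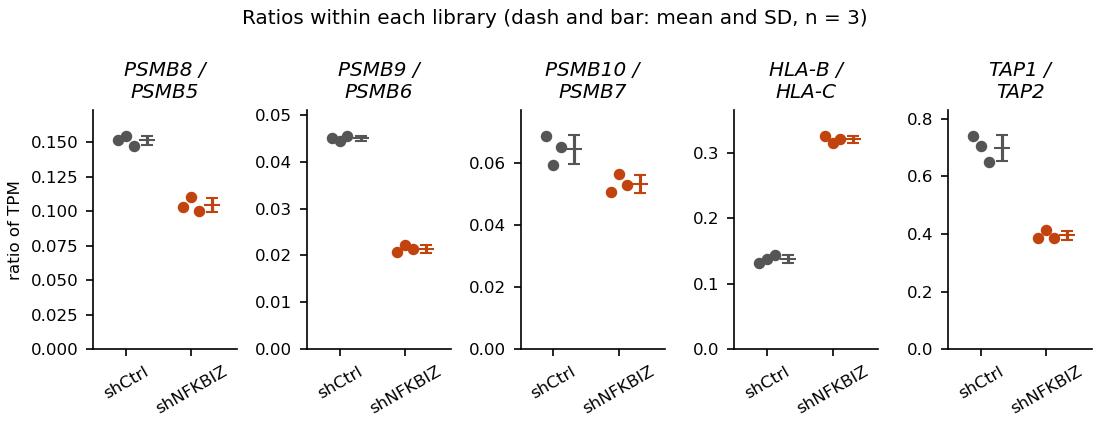
Ratios of TPM levels (y axis, from 0, scaled separately in each panel) in each shCtrl and shNFKBIZ library (x axis); each point is a library, the dash is the group mean and the bar is its SD (n = 3). The ratios of PSMB8, PSMB9 and PSMB10 to their constitutive counterparts and of TAP1 to TAP2 are lower in shNFKBIZ, and the ratio of HLA-B to HLA-C is higher, with no overlap between the groups.

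NLRC5, the transactivator, had the lowest level and the widest interval of the 9 members. Its exon reads numbered 78, 103 and 98 in shCtrl against 85, 116 and 82 in shNFKBIZ, which is 1.01 to 1.37 TPM against 1.11 to 1.63 TPM. The groups overlapped, and the 95% interval of the log2 fold change, -0.31 to 0.33, covers changes of the size seen in TAP2 (adjusted P = 0.975, edgeR). A change of that size in NLRC5 was therefore not detectable at this depth.

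Ranked by mean TPM, a scale corrected for gene length, the order in shCtrl was B2M, HLA-E, HLA-C, TAP2, TAP1, PSMB8, HLA-B, PSMB9 and NLRC5, and the neighbours HLA-E and HLA-C had overlapping libraries. In shNFKBIZ the order was B2M, HLA-C, HLA-E, TAP2, HLA-B, TAP1, PSMB8, PSMB9 and NLRC5, with overlap between HLA-C and HLA-E and between TAP1 and PSMB8. HLA-B was thus below TAP1 and PSMB8 in every shCtrl library and above both in every shNFKBIZ library. The spread of the members was wide, from 1.23 TPM for NLRC5 to 403 TPM for B2M in shCtrl.

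Class I genes share sequence with each other, so the counts were compared between reads counted as unique to the gene (unique) and all reads (total). For B2M, PSMB8, PSMB9 and NLRC5, every exon read was unique in every library. Between 97.7% and 99.0% of HLA-B reads, 94.5% and 96.4% of HLA-C reads, 96.2% and 97.2% of HLA-E reads and 99.3% and 99.6% of TAP1 reads were unique. Unique exon reads gave log2 fold changes of 0.43 for HLA-B, -0.80 for HLA-C, -0.95 for HLA-E, -0.70 for TAP1, -0.47 for PSMB8 and -1.12 for PSMB9. With them 5 members were lower and 2 were higher at an adjusted P of at most 0.05 (edgeR), against backgrounds of 33.7% and 33.4% of the genes tested, and 1 member passed the 2-fold threshold against 8.96%. The reads were mapped to the reference genome, whose HLA alleles need not be those of LOX-IMVI, and the effect of that on the HLA levels was not tested.

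**Figure D3:**
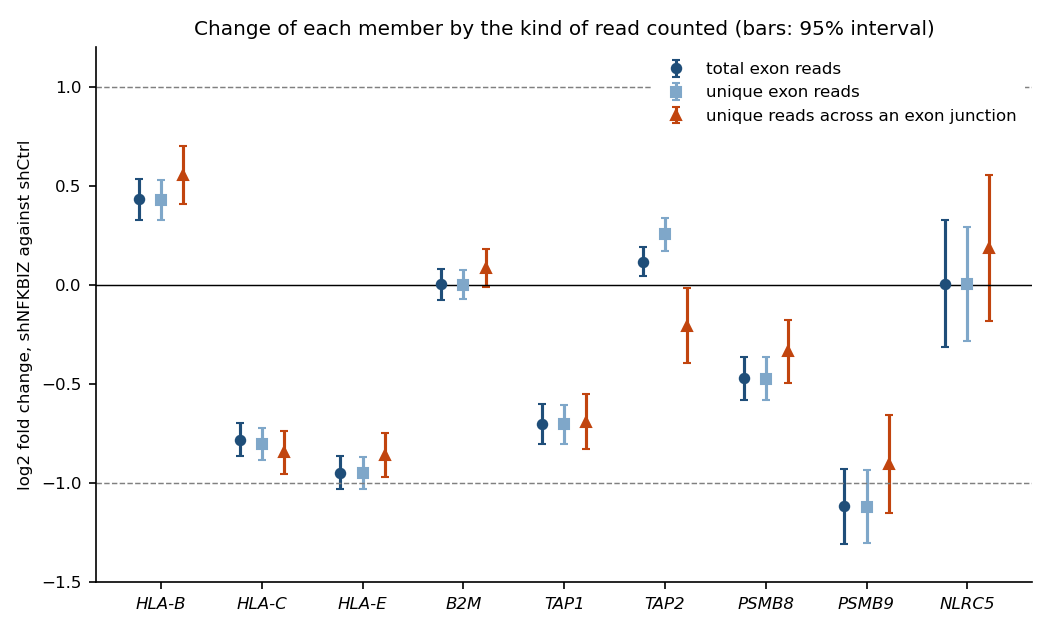
Log2 fold change of shNFKBIZ against shCtrl (y axis) for each member (x axis), from total exon reads (circles), unique exon reads (squares) and unique junction reads (triangles); bars are 95% intervals of the edgeR fit over 3 libraries per group and dashed lines mark a 2-fold change. The kinds of read lie close together for most members and apart for TAP2, whose estimate is 0.12 by total exon reads, 0.25 by unique exon reads and -0.21 by unique junction reads.

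TAP2 was the exception in its reads. Only 43.4% to 44.3% of its exon reads were unique in shCtrl and 47.6% to 49.5% in shNFKBIZ, with no overlap between the groups (P = 0.1, two-sided exact permutation test, the smallest it can give). That test was not planned, and without overlap its P was fixed in advance. In the annotation of the files, TAP2 lies inside the read-through gene ENSG00000250264 on the same strand, which covers 2023 of the 10357 exon bases of TAP2. Unique reads of TAP2 numbered 2181, 2303 and 2245 in shCtrl and 2613, 2739 and 2772 in shNFKBIZ. Exon reads not counted as unique (shared reads) numbered 2749, 3001 and 2818 in shCtrl and 2877, 2930 and 2824 in shNFKBIZ. The canonical TAP2 transcript has 1974 windows of 50 bases in common with other listed genes, all 1974 of them with that read-through gene. Shared reads therefore need not map to a second place in the genome, and where they mapped was not examined. The unique reads thus separated the groups, whereas the shared reads overlapped.

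The direction for TAP2 depended on which reads were counted. Unique exon reads put TAP2 1.19-fold higher (log2 fold change 0.25, SE 0.0401, adjusted P = 8.48e-07, edgeR). Unique reads that span an exon-exon junction, 191, 219 and 179 in shCtrl and 162, 178 and 159 in shNFKBIZ, gave -0.21 and did not pass the test (adjusted P = 0.0609, edgeR). All junction reads, 1363, 1411 and 1329 against 1302, 1345 and 1278, gave -0.03 (adjusted P = 0.541, edgeR). TAP2 thus passed as higher by exon reads and not by junction reads, and the difference between these kinds of read was not tested.

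**Figure D4:**
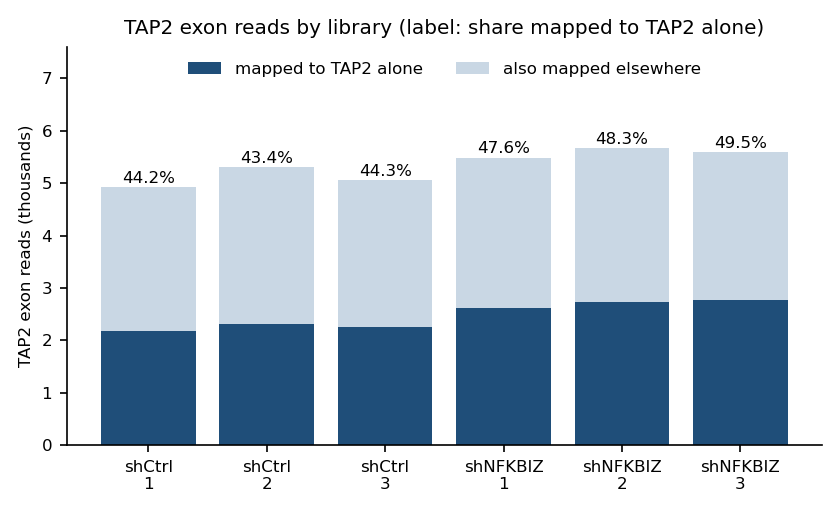
Exon reads of TAP2 (y axis, read counts from 0) in each library (x axis), divided into unique reads and shared reads, those not counted as unique. The legend labels shared reads as also mapped elsewhere, but they may map to the same place, where a read-through gene is annotated. The number above a bar is the unique share in percent. Unique reads are more numerous in all 3 shNFKBIZ libraries, while the shared reads are similar in both groups.

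For the other members, junction reads kept the direction of exon reads. By unique junction reads HLA-B was at 0.55, HLA-C at -0.84, HLA-E at -0.86, TAP1 at -0.69, PSMB8 at -0.33 and PSMB9 at -0.91 on the log2 fold change scale. These 6 of 9 members passed at an adjusted P of at most 0.05 (edgeR) against 55.5% of the genes tested in unique junction reads, and the same number passed in total junction reads against 54.9%. B2M was at 0.08 and NLRC5 at 0.19, and neither passed.

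Intron reads, which come in part from unspliced transcripts, were numerous enough to test in 5 members. HLA-E had 63, 81 and 73 intron reads in shCtrl and 36, 38 and 46 in shNFKBIZ, and its log2 fold change in introns was -0.94 (adjusted P = 2.17e-05, edgeR) beside -0.95 in exons. TAP2 had 63, 79 and 65 against 100, 89 and 91 intron reads (log2 fold change 0.35, adjusted P = 0.0464, edgeR). Both genes had groups that did not overlap, and they were the 2 of 5 members that passed, against 38.8% of the genes tested in introns. B2M, TAP1 and NLRC5 had log2 fold changes of -0.39, -0.38 and 0.24 in introns and did not pass (adjusted P of 0.111, 0.286 and 0.406, edgeR). HLA-B, HLA-C, PSMB8 and PSMB9 had at most 16 intron reads in any library and were not tested.

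In the genome, 7 of the members lie in the MHC on the short arm of chromosome 6. HLA-E lies at chr6:30489509-30494194 (plus strand), HLA-C at chr6:31268749-31272130 (minus) and HLA-B at chr6:31353872-31367067 (minus). TAP2 (chr6:32821833-32838739, minus), PSMB8 (chr6:32840717-32844679, minus), TAP1 (chr6:32845209-32853816, minus) and PSMB9 (chr6:32844136-32859851, plus) follow each other, and B2M (chr15:44711358-44718851, plus) and NLRC5 (chr16:56989485-57083531, plus) are elsewhere. In the annotation PSMB9 spans all 8608 bases of TAP1 and 544 bases of PSMB8 on the opposite strand, and the antisense RNA PSMB8-AS1 overlaps PSMB8, PSMB9 and TAP1. The counting ignored strand, and a read from an overlap of these genes could be given to either. All exon reads of PSMB8, PSMB9 and PSMB8-AS1 and 99.3% to 99.6% of those of TAP1 were counted as unique. How reads from the overlaps were assigned was not examined. PSMB8-AS1 itself had 5 to 21 exon reads per library. MIR6891 and ENSG00000285647 at HLA-B and ENSG00000260145 at NLRC5 had 0 reads in all 6 libraries. The MHC members did not move as a block: within the cluster of TAP2, PSMB8, TAP1 and PSMB9, log2 fold changes in exon reads ranged from -1.12 to 0.12.

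The rest of the pathway was read from lists compiled by hand, and their counts stand beside the 32.8% of all genes that were lower and the 32.5% that were higher. For genes of these lists past the 2-fold threshold, the share to compare with is 8.96% of all genes. Of 5 tested genes among the other class I and class I-like chains, 4 were lower and 1 was higher at an adjusted P of at most 0.05 (edgeR), with a median log2 fold change of -0.38. HLA-F, a nonclassical heavy chain, was the only gene of that list past the 2-fold threshold, at 1.27, 1.08 and 1.45 TPM in shCtrl and 0.554, 0.403 and 0.39 TPM in shNFKBIZ. It was low in all libraries and lower in each shNFKBIZ library (log2 fold change -1.56, SE 0.275, adjusted P = 3.63e-05, edgeR), by less than 4 TPM.

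Peptide loading and trimming was divided. Of 13 genes, 6 were lower, 5 were higher and 2 did not pass, against 32.8% lower and 32.5% higher over all genes, with a median of 0.03, close to that of all genes. TAPBP (tapasin), which bridges TAP to the heavy chain, fell from 91.9, 91.2 and 89.0 TPM to 63.6, 66.8 and 62.9 TPM (log2 fold change -0.58, adjusted P = 1.22e-11, edgeR). The aminopeptidases that trim peptides in the endoplasmic reticulum had log2 fold changes of 0.11 for ERAP1, which did not pass (adjusted P = 0.104, edgeR), and 0.22 for ERAP2, which rose (adjusted P = 0.000878, edgeR).

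All 6 genes of the remaining immunoproteasome and proteasome activator list were lower, against 32.8% of all genes (median -0.29), each by less than 2-fold. PSMB10 fell by 0.34 on the log2 scale (adjusted P = 0.00143, edgeR), but by unique exon reads its log2 fold change was -0.20 and did not pass (adjusted P = 0.194, edgeR). In total exon reads the activator subunits PSME1 and PSME2 fell by 0.27 and 0.13. By unique exon reads the other 5 genes of the list were lower. The constitutive core was lower in 8 of 14 genes, against 32.8% of all genes, higher in 1 and did not pass in 5 (median -0.13), and by unique exon reads these counts were 6, 1 and 7.

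Of 16 regulators of class I genes, 8 were lower, 5 were higher and 3 did not pass (median -0.06), against 32.8% lower and 32.5% higher over all genes. IRF2, a member of the interferon regulatory factors, was past the threshold at 11.1, 11.9 and 11.7 TPM against 5.92, 5.77 and 6.402 TPM (log2 fold change -1.02, SE 0.0754, adjusted P = 9.86e-11, edgeR). Its 2-fold change lay at the limit: it was lower at -0.93 with library size alone, -0.86 with total gene reads, -0.87 with unique junction reads, -0.99 without shCtrl replicate 2 and -0.97 without shNFKBIZ replicate 2 on the log2 scale, and no longer past the threshold. IRF1, the activator of the same family, rose (log2 fold change 0.46, adjusted P = 0.00143, edgeR). RFX5, which binds class I promoters together with NLRC5, fell by 0.45 on the log2 scale (adjusted P = 3.82e-08, edgeR).

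Class II genes were nearly silent: 11 of 12 were under 1 TPM in every library, and their transactivator CIITA did not exceed 0.0231 TPM. HLA-DOB was past the threshold on 2, 6 and 9 reads in shCtrl and 15, 23 and 12 in shNFKBIZ (log2 fold change 1.52, adjusted P = 0.00368, edgeR), but it was not tested by unique exon reads or with at least 10 counts in every library, because its counts were too low. Among 8 listed ligands for activating receptors of natural killer cells, 5 were tested, of which 1 was lower, 2 were higher and 2 did not pass. MICA, the ligand that was lower, fell from 41.5, 41.9 and 42.2 TPM to 30.02, 33.2 and 27.7 TPM (log2 fold change -0.55, adjusted P = 2.04e-08, edgeR), and was named after its value had been seen. The ligands that rose were ULBP3 (log2 fold change 1.13, adjusted P = 5.84e-06) and RAET1E (log2 fold change 1.49, adjusted P = 5.68e-12, edgeR). RAET1E stood at 3.93, 3.21 and 4.42 TPM in shCtrl and at 10.6, 12.5 and 11.2 TPM in shNFKBIZ.

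**Figure D5:**
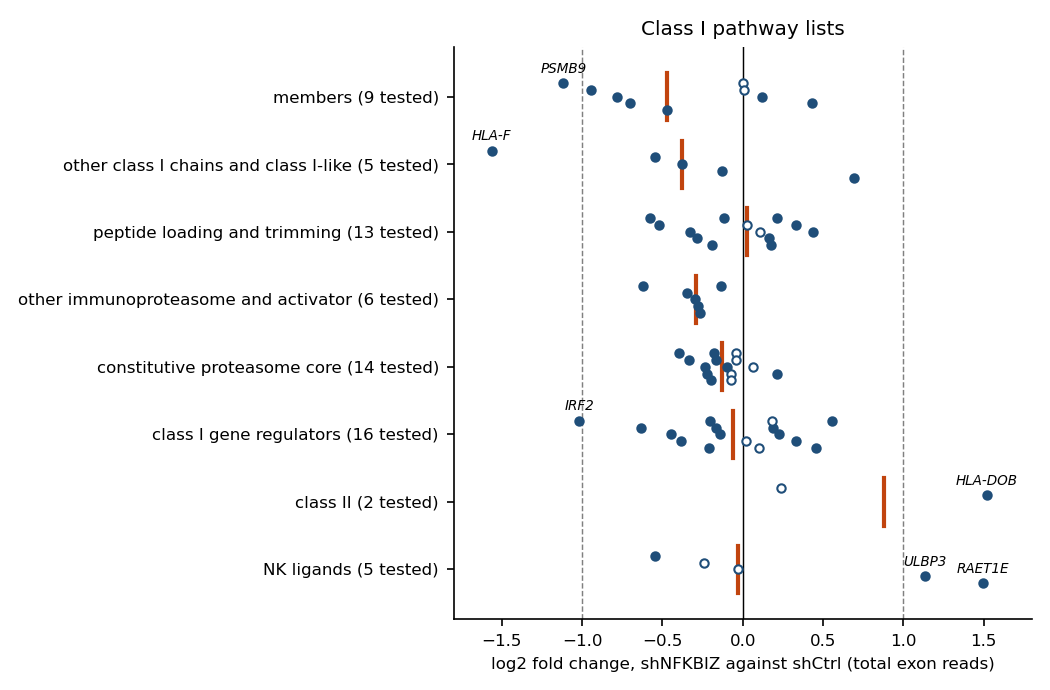
Log2 fold change in total exon reads, shNFKBIZ against shCtrl (x axis), of each tested gene in the members and in 7 related lists (y axis); filled points have an adjusted P of at most 0.05 in edgeR, open points do not, vertical bars are list medians and dashed lines mark a 2-fold change. PSMB9, HLA-F and IRF2 are past the threshold on the lower side and HLA-DOB, ULBP3 and RAET1E on the higher side, and the member median is -0.47. Of all genes tested, 8.96% were past the threshold.

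For each member, the gene with the most similar profile over the 6 libraries was sought by the Euclidean distance of centred log2 CPM among at least 9285 candidates with a mean of at least 10 CPM. The nearest genes were NFATC2IP for HLA-B (distance 0.0302), BCL9L for HLA-C (0.0588), PPP1R18 for HLA-E (0.0325), RAB34 for TAP1 (0.0638), TRIM8 for PSMB8 (0.0327) and AP1G1 for PSMB9 (0.0229). For the members that changed little they were NUP153 for B2M (0.0435), IST1 for TAP2 (0.0273) and ENSG00000290832 for NLRC5 (0.186). No member had another member as its nearest gene. PSMB9 and NLRC5 were below 10 CPM and could not be chosen. With so few members among at least 9285 candidates, this outcome says little about the members.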

How the data were processed

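RNA was sequenced from LOX-IMVI cells with a control or an NFKBIZ hairpin, 3 libraries per group, grouped by sample title. Reads were mapped by the authors in CLC Genomics Workbench to GRCh38 (hg38) and Ensembl genes, and they deposited whole-number counts of read pairs per gene, as total and unique exon, intron and exon-exon junction reads. Strand was not used, and a read could map to at most 10 places. TPM was computed anew, from total exon reads over exon length, because the deposited values use decimal commas, and differed from them by at most 4.98e-07. That comparison leaves out 1464 genes listed with an exon length of 0 and no exon reads.

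Genes were filtered with filterByExpr, scaled by TMM and tested by the robust, two-sided quasi-likelihood method of edgeR 4.0.16 (R 4.3.3), with Benjamini-Hochberg adjustment over all genes tested. The threshold was a 2-fold change together with an adjusted P no greater than 0.05. The methods of the study also ask for a difference above 4, which was tried on the TPM scale as an alternative. Standard errors are the log2 fold change divided by the square root of F. Unique, junction and intron reads were fitted likewise, and the fit was tested on simulated data. Alternatives were a replicate block, DESeq2 1.42.0, the likelihood ratio test, scaling by library size or RLE, other filters and thresholds, unique exon or total gene reads, each library left out, and a table without its 10 most abundant genes. Unique junction reads were added after the data had been seen. Replicate numbers were not used as pairs, since deviations of libraries with the same number correlated at 0.0207, 0.0561 and 0.0288.

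The members and lists were chosen with earlier results of these data known. Named genes are NFKBIZ, the members, listed genes past the threshold, 14 listed genes named whatever their values (1 is not reported here), genes that overlap a member and the nearest profile of each member. CD68 was named after its value was seen. Promoter windows come from the RefSeq table and were aligned with Biopython 1.88. P-values measure the spread between these libraries only.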

Additional observations from a re-analysis of the deposited data

How the results depend on the processing

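Over 17 alternatives HLA-B stayed higher (log2 fold change 0.40 to 0.55), and HLA-C (-0.84 to -0.69), HLA-E (-0.98 to -0.86), TAP1 (-0.74 to -0.61), PSMB8 (-0.50 to -0.33) and PSMB9 (-1.15 to -0.91) stayed lower, each with an adjusted P of at most 0.05 in all 17. PSMB9 was at least 2-fold lower in 16 of them. The number of members past the threshold in edgeR, 1 as reported, was 0 with unique junction reads, where 7 members had an unadjusted P under 0.05, and 4 with a 1.5-fold limit. For these counts and those below at an unadjusted P or a 1.5-fold limit, the share over all genes was not computed. They therefore cannot be set against a background. The number of other pathway genes past the 2-fold threshold was 5 as reported, and 8.96% of all genes tested passed it. The number of these pathway genes was 1 with unique junction reads, in which 4 of those 5 were not tested, and 8 with a 1.5-fold limit. It was 2 (IRF2 and RAET1E) when a TPM difference above 4, a cut-off in the methods of the study, was added. It was 4 with library size alone, with total gene reads, without shCtrl replicate 2 and without shNFKBIZ replicate 2, each time without IRF2. It was also 4 with unique exon reads and with at least 10 counts in every library, where HLA-DOB was not tested. TAP2 reversed to -0.21 with unique junction reads, for which the cause was not tested. B2M, not called as reported, took the values -0.0035 with no filter and -0.011 with total gene reads, and NLRC5 took -0.0023 with no filter. Leaving out each library gave -0.023 to 0.036 for B2M and -0.17 to 0.10 for NLRC5, both spanning 0 and not called. In introns no member passed the 2-fold threshold in edgeR (0, with 2 at an unadjusted P under 0.05), and the count ran from 0 to 1 over left-out libraries, with HLA-E passing without shCtrl replicate 1 and without shNFKBIZ replicate 3. Fitting the replicate number as a block left 1 member past the threshold, with 7 passing on adjusted P alone, and changed no other call. The labels do not say whether libraries with the same number were made together. NLRC5, at about 100 reads per library, and intron reads are limited by depth.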
